A study of Homo sapiens with 6 samples.

Results

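The ATP-binding cassette (ABC) transporter genes were described in U87MG glioblastoma cells. Members were taken by symbol, as all genes named ABC with a subfamily letter from A to G and a number, except for 1 gene. This gave 45 of the 27259 genes in the deposited comparison table. Family genes with other symbols were not taken, so sums and subfamily shares below are those of these members only. By subfamily they were 12 of ABCA, 9 of ABCB, 12 of ABCC, 4 of ABCD, 1 of ABCE, 3 of ABCF and 4 of ABCG.

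RNA-seq was performed on 6 libraries of U87MG, an established human malignant glioma line. U87MG-control (3 libraries) had received a control lentivirus for 24 h, and U87MG-LMO2 (3 libraries) had received a vector for overexpression of LMO2 over the same time. LMO2 encodes a LIM-domain adaptor protein that acts in transcription factor complexes. Both groups are bulk total RNA of the same line and both carry a lentiviral vector. The labels name no batch and do not say whether the libraries of a group came from separate cultures, so p-values measure the spread between these libraries, which may be technical.

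ABC transporters bind and hydrolyse ATP at paired nucleotide-binding domains and use the energy to move a substrate across a membrane. Subfamily A carries mainly lipids. Subfamily B holds the P-glycoprotein pump and several mitochondrial and lysosomal carriers, and subfamily C holds the multidrug resistance proteins and the sulfonylurea receptors. Subfamily D serves peroxisomes and lysosomes, and subfamily G exports sterols and drugs. ABCE and ABCF proteins have the nucleotide-binding domains but no membrane domain, and work on ribosomes. In brain, ABCB1 and ABCG2 are best known from the blood-brain barrier, where they keep many drugs out of the tissue.

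Depth was 11428432 to 13537284 expected counts in U87MG-control and 14630627 to 17892955 in U87MG-LMO2, with no overlap between the groups. The mesenchymal markers VIM, CD44 and FN1 had mean FPKM values of 5166, 467.8 and 373 in U87MG-control. The astrocyte and glial markers GFAP, S100B, SOX2 and OLIG2 were each under 1 FPKM, so that 4 of 8 markers set for a glioma line reached 1 FPKM. In the 6 libraries, the summed FPKM was at most 0.67 for 3 immune markers, at most 2.35 for 5 endothelial markers, at most 0.74 for 2 epithelial markers and 12.6 to 16.2 for 3 neuronal markers, nearly all of it SNAP25. LMO2 itself was at 0.24 to 0.46 FPKM in the controls and at 212, 193 and 508 FPKM in U87MG-LMO2 replicates 1 to 3.

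The levels of the ABC genes in U87MG were examined first, in FPKM, which is scaled to gene length and can be compared between genes. Of the 45 members, 10 had a mean of at least 10 FPKM in U87MG-control, 15 lay between 1 and 10 FPKM, and 20 were under 1 FPKM. The highest were the ribosome-bound ABCF2 (52.8 ± 5.05 FPKM, SD, n = 3) and ABCF3 (40.8 ± 2.82 FPKM), the cholesterol exporter ABCA1 (32.4 ± 6.33 FPKM) and the translation factor ABCF1 (30.9 ± 3.56 FPKM). Behind them came the lysosomal vitamin B12 carrier ABCD4 (13.8 ± 1.12 FPKM), the ribosome recycling factor ABCE1 (13.6 FPKM), the drug efflux pump ABCC1 (13.1 FPKM), the peroxisomal carrier ABCD3 (12.5 FPKM), the sulfonylurea receptor ABCC9 (12.1 FPKM) and the mitochondrial ABCB8 (11.5 FPKM). Among the 25 members at or over 1 FPKM, 17 of the 24 neighbouring pairs in this order had overlapping control libraries. ABCF2 stood apart from ABCF3, and ABCF1 from ABCD4, but the ranges of ABCF3, ABCA1 and ABCF1 overlapped from one to the next.

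**Figure D1:**
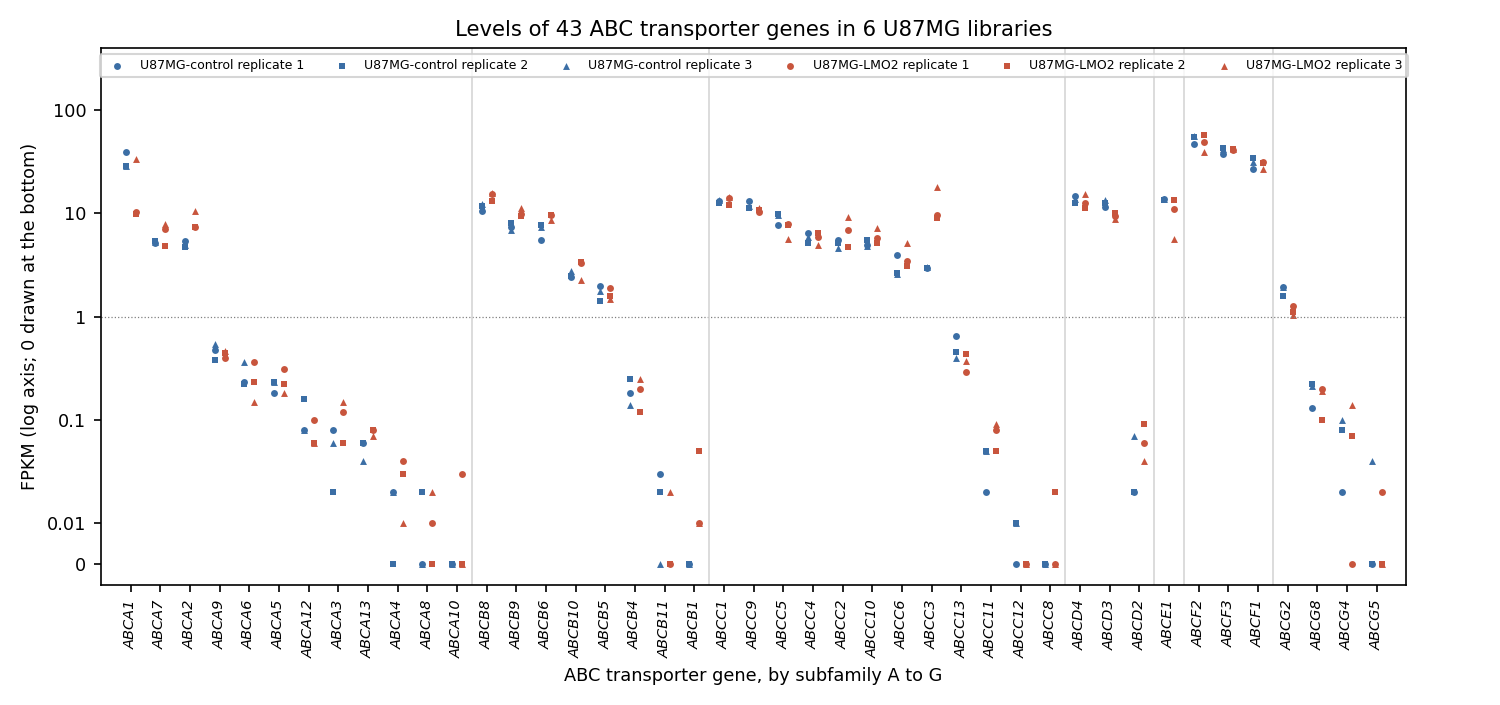
FPKM (log axis, with 0 drawn at the bottom) of 43 of the 45 ABC transporter genes in each of 3 U87MG-control (blue) and 3 U87MG-LMO2 (red) libraries, grouped by subfamily A to G and ordered by the control mean; the dotted line is 1 FPKM. All members of ABCE and ABCF lie over 1 FPKM, whereas 9 of 12 ABCA members and 3 of 4 ABCG members lie under it.

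By subfamily, ABCF and ABCE had 4 of 4 members over 10 FPKM. These 4 genes made up 44.7% ± 2.95 (SD, n = 3) of the summed ABC FPKM in U87MG-control, with 125.6, 145.9 and 143.0 FPKM in the 3 libraries. ABCC followed with 18.4% and 8 of 12 members at or over 1 FPKM, ABCA with 14.2% and 3 of 12, ABCB with 11.9% and 6 of 9, and ABCD with 10.0% and 3 of 4. The ABCG members taken here held 0.68%, nearly all of it ABCG2. Within ABCA, ABCA1 stood at 32.4 FPKM, the phospholipid exporter ABCA7 at 5.28 FPKM and the endolysosomal ABCA2 at 5.02 FPKM, and the other 9 members were under 1 FPKM.

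The members under 1 FPKM included the textbook tissue-specific carriers. The photoreceptor transporter ABCA4, the lung surfactant transporter ABCA3, the bile salt pump ABCB11, the pancreatic sulfonylurea receptor ABCC8 and the sterol pair ABCG5 and ABCG8 had control means of at most 0.19 FPKM. ABCA10, ABCB1 and ABCC8 had 0 counts in all 3 control libraries, which allows up to 3 counts, or 0.222 to 0.263 CPM, in each. In all, 14 of the 45 members failed the filter on low counts and were not tested, and none of them exceeded 18 counts or 0.25 FPKM in any library. They were ABCA3, ABCA4, ABCA8, ABCA10, ABCA12, ABCB1, ABCB4, ABCB11, ABCC8, ABCC11, ABCC12, ABCD2, ABCG4 and ABCG5. In the RefSeq gene order of GRCh38.p14, several of these genes are direct neighbours. ABCA8, ABCA9, ABCA6, ABCA10 and ABCA5 follow one another on chromosome 17, ABCC12 and ABCC11 on chromosome 16, ABCG5 and ABCG8 on chromosome 2, and ABCB4 and ABCB1 on chromosome 7, and every gene of these runs was under 1 FPKM. ABCC1 and ABCC6, also neighbours on chromosome 16, were at 13.1 and 3.05 FPKM.

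The level in U87MG was then set beside the sequence before the gene start. The RefSeq table used here held promoter entries for 35 of the 45 members. The 20 of these with at least 1 FPKM had a median of 24.5 CpG dinucleotides in the 250 bases upstream of the start (the entry with the most CpG for each gene), and 19 of them had at least 10. The 15 members under 1 FPKM had a median of 7, and 5 had at least 10. Over all 27305 genes of the table, counted in the same way, the median was 12 and 54.9% had at least 10. The exception among the members over 1 FPKM was ABCC2, known as an apical pump of liver, kidney and gut, with 1 CpG and 5.08 FPKM. This is a description chosen after the levels were seen, and it was not tested.

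The drug efflux members were examined next. This group held 10 genes, ABCB1, ABCG2, ABCC1 to ABCC6, ABCC10 and ABCC11. ABCB1, which encodes P-glycoprotein, had 0 counts in each control library and, after rounding, 1, 3 and 1 counts in U87MG-LMO2. Both groups were at or under 3 counts, so no fold is given, and the gene was not detectable at this depth. ABCG2, which encodes the breast cancer resistance protein, was at 1.95, 1.59 and 1.93 FPKM in U87MG-control and at 1.26, 1.11 and 1.04 FPKM in U87MG-LMO2. All U87MG-LMO2 libraries were lower than all controls, but the edgeR test did not call the gene (log2 fold change -0.55, SE 0.18, Benjamini-Hochberg adjusted p 0.102).

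The multidrug resistance proteins of subfamily C made up most of the efflux group. ABCC1, which exports glutathione conjugates and drugs, was at 13.28, 12.54 and 13.34 FPKM in U87MG-control and at 14.03, 12.08 and 14.49 FPKM in U87MG-LMO2, and the groups overlapped (log2 fold change 0.12, SE 0.11, edgeR adjusted p 0.558). It ranked first among the 10 genes in every control library. ABCC5 and ABCC4, which export cyclic nucleotides and nucleotide analogs, came next by the control mean.

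ABCC5 was at 7.79, 9.95 and 9.67 FPKM in U87MG-control and at 7.85, 7.74 and 5.69 FPKM in U87MG-LMO2 (log2 fold change -0.28, SE 0.14, edgeR adjusted p 0.264). ABCC4 was at 6.45, 5.12 and 5.93 FPKM in U87MG-control and at 5.94, 6.44 and 4.97 FPKM in U87MG-LMO2 (log2 fold change 0.08, SE 0.15, edgeR adjusted p 0.753). ABCC2 was at 5.47, 5.17 and 4.60 FPKM in U87MG-control and at 6.95, 4.74 and 9.25 FPKM in U87MG-LMO2 (log2 fold change 0.48, SE 0.24, edgeR adjusted p 0.251). The groups overlapped for all of these, and ABCC2 was highest in U87MG-LMO2 replicate 3.

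ABCC3 was the called gene of this group. It encodes multidrug resistance protein 3, a basolateral exporter of organic anions and glucuronides that is best known from liver and gut. It was at 2.98, 2.96 and 3.04 FPKM in U87MG-control and at 9.62, 9.02 and 18.11 FPKM in U87MG-LMO2. The controls lay within 0.1 FPKM of one another, and every U87MG-LMO2 library was above all of them, with replicate 3 the highest. In normalised read counts ABCC3 rose from 11.9 ± 0.97 CPM to 57.0 ± 30.5 CPM (SD, n = 3), which was 4.81-fold (log2 fold change 2.27, SE 0.33, edgeR adjusted p 0.0103). The closeness of the controls thus held in FPKM only (2.99 ± 0.04 FPKM, SD, n = 3). The U87MG-LMO2 mean was 12.25 FPKM, so the rise was smaller in FPKM than in read counts. Read count and FPKM did not keep 1 ratio between libraries for this gene, and the reason was not tested. The study had picked ABCC3 from these same libraries, so the change is not independent evidence of its direction. LMO2 was also highest in replicate 3, and its part in the level of ABCC3 was not tested. Without U87MG-LMO2 replicate 3 the log2 fold change of ABCC3 was 1.73, and without any 1 of the control libraries the adjusted p was between 0.0536 and 0.0602.

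In the order of the efflux genes by FPKM, ABCC3 ranked 7th, 6th and 6th of the 10 in the control libraries, and 2nd, 2nd and 1st in the U87MG-LMO2 libraries. Its share of the summed efflux FPKM was 6.36, 6.51 and 6.61% in U87MG-control and 17.5, 18.2 and 27.4% in U87MG-LMO2. The sum over the 10 genes was 46.83, 45.46 and 45.96 FPKM in U87MG-control and 54.94, 49.48 and 66.14 FPKM in U87MG-LMO2. Of the 8 efflux members tested, 1 was called higher and 0 lower by edgeR at an adjusted p under 0.05, against 4.72% called higher and 2.75% called lower over all genes tested. At an unadjusted p under 0.05 in edgeR, 2 were higher (ABCC3 and ABCC6) and 1 was lower (ABCG2), and DESeq2 and limma called 0 lower. The share of all genes at the unadjusted threshold was not counted.

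**Figure D2:**
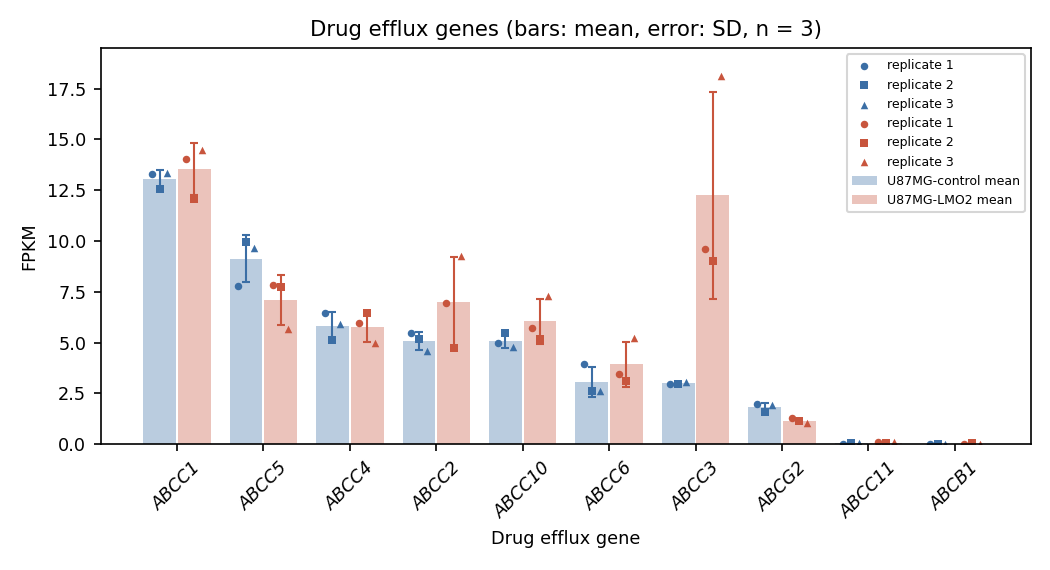
FPKM of the 10 drug efflux genes in U87MG-control (blue) and U87MG-LMO2 (red); bars are means, error bars SD (n = 3) and points the single libraries. ABCC3 lies at 2.96 to 3.04 FPKM in the controls and at 9.02 to 18.11 FPKM in U87MG-LMO2, ABCG2 lies at 1.04 to 1.26 FPKM against 1.59 to 1.95 FPKM, and ABCB1 and ABCC11 lie near 0.

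ABCC6 and ABCC10, the other 2 efflux members tested, did not pass either. ABCC10 was at 4.79 to 5.46 FPKM in U87MG-control and 5.15 to 7.29 FPKM in U87MG-LMO2. ABCC6, which is known for its part in the control of tissue mineralisation, had 57.25, 75.0 and 54.73 expected counts but 3.92, 2.62 and 2.61 FPKM in the controls, so that count and FPKM did not keep 1 ratio between libraries. ABCC6 has near-identical pseudogene copies that can share its reads, and its log2 fold change of 0.82 (edgeR adjusted p 0.139) is uncertain.

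All tested members were then compared between U87MG-LMO2 and U87MG-control. Of 31 members tested, edgeR called 2 higher (ABCC3 and ABCA2) and 0 lower at an adjusted p under 0.05, against 4.72% of all 16092 genes tested called higher and 2.75% called lower. The members called in either direction were 6.45% of those tested, against 7.48% of all genes. At an unadjusted p under 0.05 in edgeR, 7 members were higher and 2 were lower (ABCD3 and ABCG2), and DESeq2 and limma called 0 lower. The share of all genes at the unadjusted threshold was not counted, so no lean can be read from these 2 numbers. The median log2 fold change of the 31 members was 0.08, against -0.01 over all genes, with 17 members above 0 and 14 below. The summed ABC FPKM was 309 ± 4.45 in U87MG-control and 309 ± 14.7 in U87MG-LMO2 (SD, n = 3). The shares of the subfamilies in the sum were also close for ABCD (10.0 and 9.99%) and ABCF (40.3 and 39.1%), while ABCB was at 11.9% ± 0.40 and 14.6% ± 0.87 and ABCC at 18.4% ± 0.82 and 21.6% ± 1.80.

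The groups did not overlap in normalised read counts for 9 of the 31 members, against 34.1% of all genes tested. In 7 of them every U87MG-LMO2 library was higher (among them ABCA2, ABCA13, ABCB6, ABCB8, ABCB9 and ABCC3), and in 2 every U87MG-LMO2 library was lower (ABCD3 and ABCG2). Over all genes these shares were 17.5% above and 16.6% below.

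**Figure D3:**
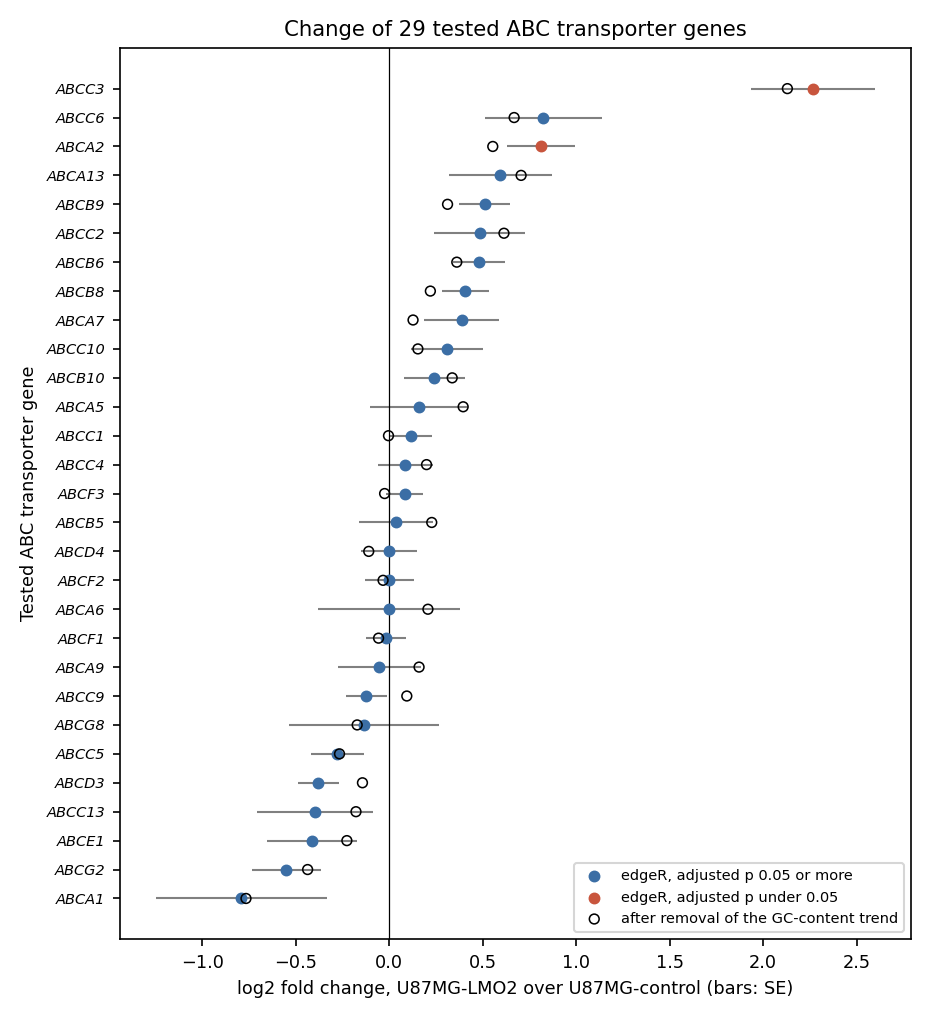
Log2 fold change of U87MG-LMO2 over U87MG-control for 29 of the 31 tested ABC genes (filled points, bars SE), coloured by the edgeR call, with the value after removal of each library's GC-content trend (open circles). ABCC3 stands at 2.27 and ABCA2 at 0.81, both called, and the other members drawn lie between -0.79 and 0.82.

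ABCA2 was the called member among the lipid carriers. It encodes an endolysosomal transporter that is abundant in oligodendrocytes and takes part in sterol and sphingolipid handling. It was at 5.34, 4.74 and 4.97 FPKM in U87MG-control and at 7.44, 7.36 and 10.66 FPKM in U87MG-LMO2. Every U87MG-LMO2 library was above every control, and replicate 3 was again the highest. Its normalised read count rose 1.76-fold, from 40.9 ± 2.48 CPM to 71.8 ± 20.0 CPM (SD, n = 3, log2 fold change 0.81, SE 0.18, edgeR adjusted p 0.0344). limma did not call it on log2(FPKM + 1) (adjusted p 0.0549) or on log2(FPKM + 0.1) (adjusted p 0.0502). The edgeR adjusted p was 0.116 to 0.129 without any 1 of the control libraries, and 0.0646 without U87MG-LMO2 replicate 1. After removal of the GC-content trend the log2 fold change was 0.55 (edgeR adjusted p 0.0493).

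ABCA1 varied most between the U87MG-LMO2 libraries. It encodes the exporter that loads cholesterol and phospholipid onto apolipoprotein A-I. It was at 39.68, 28.48 and 28.96 FPKM in U87MG-control, and at 10.39, 9.87 and 33.93 FPKM in U87MG-LMO2. Replicates 1 and 2 were thus below all controls, while replicate 3 lay within their range. The gene was not called by edgeR (log2 fold change -0.79, SE 0.46, adjusted p 0.313). Without U87MG-LMO2 replicate 3 it was -1.69 with an edgeR adjusted p of 3.26e-04, in a fit that called 6.72% of all genes lower. Replicate 3 was also the library with the most LMO2 and the deepest one, and the part of either in this result was not tested.

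Of the cholesterol handling genes set beside ABCA1, NPC1 and NPC2 were also lower in U87MG-LMO2 replicates 1 and 2 than in replicate 3, but here replicate 3 lay below all controls as well. NPC1, which moves cholesterol out of lysosomes, was at 149 to 188 FPKM in U87MG-control and at 74.9, 58.0 and 137 FPKM in U87MG-LMO2. NPC2, the partner of NPC1, was at 265 to 276 FPKM in U87MG-control and at 182, 166 and 233 FPKM in U87MG-LMO2. Both genes were chosen after their values were seen, and neither was called (edgeR adjusted p 0.136 and 0.127). Without U87MG-LMO2 replicate 3 both were called by edgeR, NPC1 at a log2 fold change of -1.29 (adjusted p 5.53e-04) and NPC2 at -0.63 (adjusted p 1.45e-03), in the same fit that called 6.72% of all genes lower.

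Promoter sequences are shown for ABCA2, as the called member with an entry in the RefSeq table, and for ABCA1, as the member with the widest spread. They are from GRCh38.p14, written 5′ to 3′ on the minus strand, from 250 bases before the annotated start to the start or to the nearest base that GENCODE v29 places in an exon of the gene. Capitals mark CANNTG, the E-box letters bound by basic helix-loop-helix factors, with which LMO2 forms complexes through its partners.
ABCA2, first start, chr9:137028923-137029172: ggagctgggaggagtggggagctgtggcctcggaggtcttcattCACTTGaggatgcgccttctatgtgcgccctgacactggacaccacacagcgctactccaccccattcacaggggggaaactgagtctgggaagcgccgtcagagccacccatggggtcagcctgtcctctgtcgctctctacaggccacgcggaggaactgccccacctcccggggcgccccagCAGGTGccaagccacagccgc
ABCA2, second start, chr9:137028289-137028487: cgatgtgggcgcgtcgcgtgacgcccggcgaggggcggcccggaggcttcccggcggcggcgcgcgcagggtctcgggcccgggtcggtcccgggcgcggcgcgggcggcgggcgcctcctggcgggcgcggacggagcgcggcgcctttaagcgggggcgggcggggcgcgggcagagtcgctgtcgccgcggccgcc
ABCA1, chr9:104928238-104928405: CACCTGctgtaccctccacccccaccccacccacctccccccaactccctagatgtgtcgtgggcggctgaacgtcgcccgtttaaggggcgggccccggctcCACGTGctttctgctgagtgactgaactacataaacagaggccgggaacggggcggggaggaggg

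The stretch at the first ABCA2 start held 2 matches to CANNTG and 12 CpG, the one at the second start held 0 and 44, and that of ABCA1 held 2 and 11. Over the 250 bases before each start, CANNTG, which reads the same on both strands, was present in 37 of the 53 windows of ABC genes and in 61.8% of all 35116 windows. GATA, on either strand, was in 24 of the 53 windows and in 45.6% of all. TTCNNNGAA, the core that STAT factors bind and again the same on both strands, was in 2 of the 53 and in 6.57% of all. GGGCGG, the core of the GC box, on either strand, was in 25 of the 53 and in 42.6% of all. The GATA and GGGCGG motifs can share no more than 1 letter with CANNTG, while TTCNNNGAA can share more through its open positions, and a match describes the letters only. ABCC3 had no entry in the table.

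Among the peroxisomal and lysosomal carriers of subfamily D, ABCD3, which carries branched-chain fatty acids and bile acid precursors, was at 11.43, 12.50 and 13.43 FPKM in U87MG-control and at 9.52, 10.03 and 8.73 FPKM in U87MG-LMO2 (log2 fold change -0.38, SE 0.11, edgeR adjusted p 0.0708). The groups did not overlap. ABCD4 was at 14.88, 12.65 and 13.79 FPKM in U87MG-control and at 12.65, 11.39 and 15.32 FPKM in U87MG-LMO2 (log2 fold change 0.00), and ABCD2 was at most 0.09 FPKM.

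The mitochondrial and lysosomal members of subfamily B had a median log2 fold change of 0.41. ABCB8, of the mitochondrial inner membrane, was the highest ABCB member, at 10.47, 11.85 and 12.29 FPKM in U87MG-control and at 15.53, 13.08 and 15.84 FPKM in U87MG-LMO2. ABCB9, a lysosomal peptide carrier, was at 7.33, 8.00 and 6.97 FPKM in U87MG-control and at 9.79, 9.42 and 11.24 FPKM in U87MG-LMO2. ABCB6, a porphyrin carrier, was at 5.58, 7.69 and 7.31 FPKM in U87MG-control and at 9.60, 9.60 and 8.72 FPKM in U87MG-LMO2. The groups did not overlap for any of these 3 genes, as for 17.5% of all genes in this direction, and their log2 fold changes of 0.41, 0.51 and 0.48 had edgeR adjusted p values of 0.0834, 0.0587 and 0.0720. DESeq2, which called 6.92% of all genes higher, called ABCB6 and ABCB9. After removal of the GC-content trend the log2 fold changes of ABCB8, ABCB9 and ABCB6 were 0.22, 0.31 and 0.36. ABCB10, which acts in haem synthesis, had a log2 fold change of 0.24 and overlapping groups.

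ABCF2 and ABCF3, of the ribosome-bound members, had the highest mean FPKM of all members in both groups. ABCF2 was at 47.00, 55.51 and 55.96 FPKM in U87MG-control and at 49.65, 57.12 and 39.28 FPKM in U87MG-LMO2, and ABCF1, ABCF2 and ABCF3 had log2 fold changes of -0.02, 0.00 and 0.08. The SE of these 3 values was 0.10 to 0.13. ABCE1, which splits ribosomes after termination, was at 13.85, 13.38 and 13.66 FPKM in U87MG-control and at 11.01, 13.52 and 5.67 FPKM in U87MG-LMO2. Its low value in replicate 3 set the spread, and edgeR did not call the gene (log2 fold change -0.41, SE 0.24, adjusted p 0.312).

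The receptor subunit ABCC9, known as SUR2, is the regulatory part of ATP-sensitive potassium channels and no pump. It was at 13.32, 11.36 and 11.68 FPKM in U87MG-control and at 10.25, 10.89 and 11.18 FPKM in U87MG-LMO2, with a log2 fold change of -0.12 (SE 0.11). Its pore partners KCNJ8 and KCNJ11 were at most 1.10 FPKM in every library. The remaining tested members were ABCA5, ABCA6, ABCA9, ABCA13, ABCG8, ABCB5 and the pseudogene ABCC13, with log2 fold changes between -0.40 and 0.59, and ABCA7 with 0.39, and none passed.

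**Figure D4:**
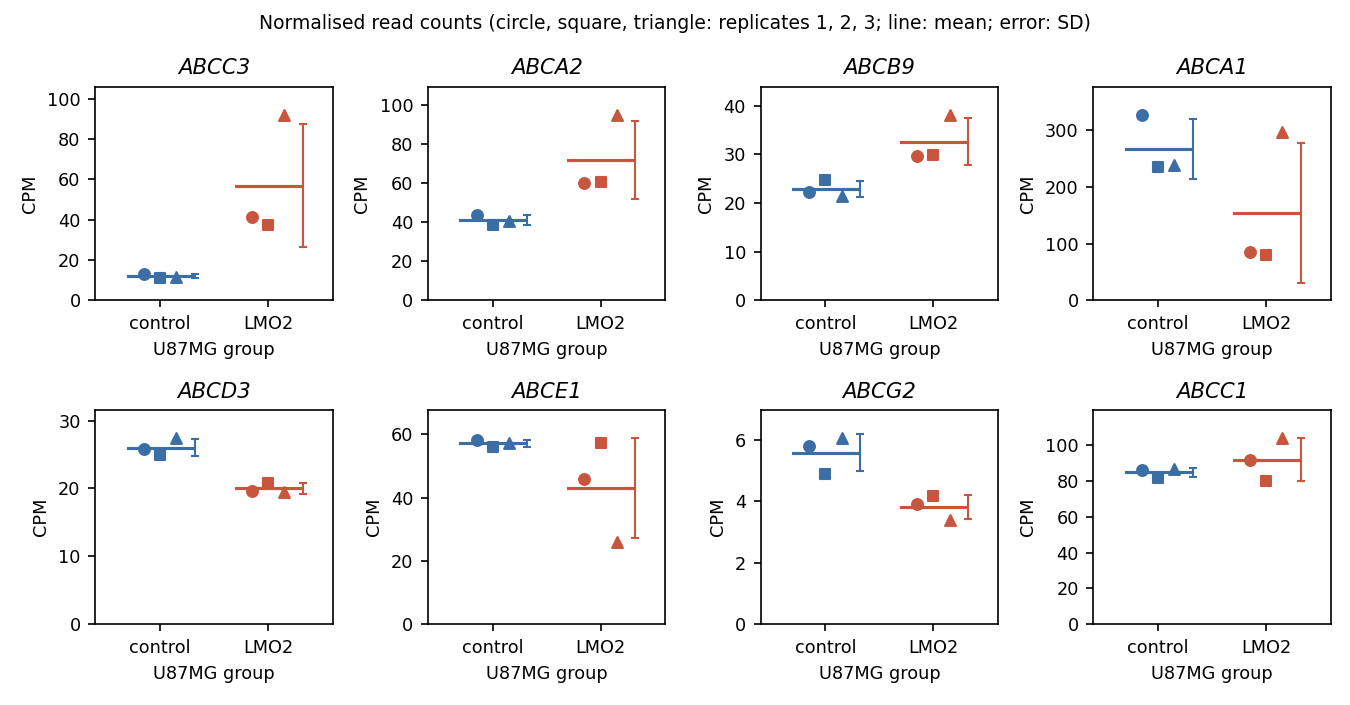
Normalised read counts (CPM, axes from 0) of 8 ABC genes in each library, with replicates 1, 2 and 3 as circle, square and triangle, the mean as a line and the SD (n = 3) as an error bar. U87MG-LMO2 replicate 3 is the highest of its group for ABCC3 (92.2 CPM), ABCA2 (95.0 CPM) and ABCA1 (297 CPM) and the lowest for ABCE1 (26.0 CPM), whereas ABCD3 and ABCG2 are low in all 3 U87MG-LMO2 libraries.

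The log2 fold change of the members moved with the GC content of their transcripts. Across the 31 tested members Pearson's r was 0.51 and Spearman's rho 0.63. Across all 14459 tested genes with a known GC content the values were 0.34 and 0.42. These are correlations across genes that share the same 6 libraries, and genes are not independent replicates. Of the 16 members with a GC content of 49.8% or more, 11 had a log2 fold change above 0, with a median of 0.35. Of the 15 members with less, 6 were above 0, with a median of -0.05. After each library's GC-content trend was removed, the medians were 0.14 and 0.16, and r was 0.25 and rho 0.29. ABCC3 (56.6% GC) kept a log2 fold change of 2.13 and ABCA1 (49.6% GC) one of -0.77. ABCD3 (38.0% GC) went from -0.38 to -0.14, and ABCB8 (60.5% GC) from 0.41 to 0.22.

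**Figure D5:**
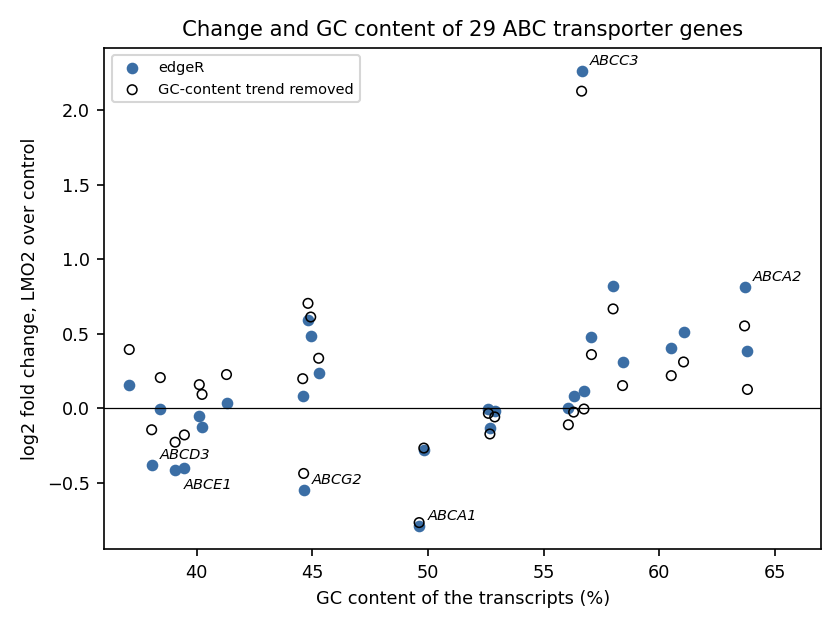
Log2 fold change of U87MG-LMO2 over U87MG-control against the GC content (%) of the transcripts for 29 of the 31 tested ABC genes, before (filled) and after (open) removal of each library's GC-content trend. Before the removal the members with more GC tend to lie higher, and ABCC3 stands apart at 2.27 before and 2.13 after it.

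Genes that regulate or work with ABC transporters were counted from 6 lists with 64 genes, of which 60 were tested. The edgeR test called 2 higher and 1 lower at an adjusted p under 0.05, or 3.33 and 1.67% of those tested, against 4.72 and 2.75% of all genes. RXRA, the partner of the liver X receptors that act on ABCA1, was at 6.22, 7.74 and 7.90 FPKM in U87MG-control and at 16.61, 15.73 and 13.19 FPKM in U87MG-LMO2. It rose with a log2 fold change of 1.10 (SE 0.12, edgeR adjusted p 3.60e-03), and the groups did not overlap. A link between RXRA and the level of any ABC gene was not tested. LCAT, which esterifies the cholesterol that ABCA1 exports, rose with a log2 fold change of 0.66 (edgeR adjusted p 0.0291). HSD17B4, an enzyme of peroxisomal fatty acid oxidation, fell with a log2 fold change of -0.50 (edgeR adjusted p 0.0228). After removal of the GC-content trend HSD17B4 was not called (-0.35, edgeR adjusted p 0.0663), and the glutathione transferase GSTO1 was called lower instead (-0.43, edgeR adjusted p 0.0427). In that fit RXRA and LCAT were still called higher, and so was a further gene of the nuclear and stress regulators.

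By list, the nuclear and stress regulators had 1 of 13 tested genes called higher and a median log2 fold change of 0.11. The lipid acceptors and cholesterol handling genes had 1 of 8 called higher and a median of -0.35, and the organelle partners of subfamilies B and D had 1 of 12 called lower and a median of 0.06. Of the 15 genes of glutathione supply and conjugation edgeR called 0, with 1 higher and 3 lower at an unadjusted p under 0.05, and DESeq2 and limma each called 1 lower (GSTO1). Of the 10 ribosome partners edgeR called 0, with 1 higher and 2 lower at an unadjusted p under 0.05, and DESeq2 and limma called 0. The 2 channel partners of the sulfonylurea receptors had log2 fold changes of 0.57 and 0.41, with 0 called by edgeR, DESeq2 or limma and 0 at an unadjusted p under 0.05. DESeq2 gave no adjusted p for KCNJ8. For these lists too, the share of all genes at the unadjusted threshold was not counted.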

How the data were processed

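Total RNA of 6 U87MG libraries (3 per group) was sequenced by a service company. The authors deposited 1 table per library with expected counts per Entrez gene, which are estimated, need not be whole and are not normalized, and FPKM values, which the authors scaled to gene length and library size and rounded to 2 decimals. The submitters' processing notes name Bowtie2, BWA and GRCh38.p12 without their roles. The counting program is not given in the sources used here. The deposited comparison table gave the gene symbols. Its group means of FPKM served to find genes with damaged values, and its log2 ratios and probabilities were not used. The table of U87MG-LMO2 replicate 3 had 3 shortened lines, and 131 genes that did not match the authors' mean were left out, 0 of them ABC genes. Genes with no line were taken as 0. Some genes of the family and of the lists are not reported by name here, though the counts over members include those tested.

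Expected counts were rounded and tested with edgeR 4.0.16 in R 4.3.3 (filterByExpr, TMM, glmQLFit and glmQLFTest, 2-sided), adjusted by the Benjamini-Hochberg method over 16092 genes. The threshold for a call was an adjusted p of 0.05. The SE of an edgeR log2 fold change was derived from the test, as its absolute value divided by the square root of the quasi-likelihood F statistic. CPM values used TMM-adjusted library sizes. A count of 0 was taken to allow 3 counts, and this limit was scaled to the unadjusted library total. Such limits cover counting error only, because reads were counted without molecular identifiers. In bulk RNA, fewer expressing cells and less RNA per cell cannot be told apart. GC content came from GENCODE v29 transcripts (known for 89.9% of tested genes), and its trend in each library was taken out by lowess (span 0.3). Alternatives were DESeq2 1.42.0, limma 3.58.1 on log2(FPKM + 1) and log2(FPKM + 0.1), upper-quartile normalization, other filters, a replicate block and leaving out each library. Simulated counts with the levels and spread of these data served to check edgeR, DESeq2, limma on log2(FPKM + 1), the replicate block and the GC removal. They held no GC-content trend and no pairing of libraries. They could therefore not check how the GC removal or the block handle such features. The other alternatives were not run on simulated counts. Promoter sequences were from RefSeq (GRCh38.p14).

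The members, role groups and lists were chosen with earlier results of these data known. Values in every library were given by rule for called members, ABCB1, ABCG2, ABCC1 to ABCC5 and the highest control member of each subfamily. The other members given so were chosen after their values were seen. Of the lists, MGST2 had no row in the tables used here and GCN1 was matched as GCN1L1.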

Additional observations from a re-analysis of the deposited data

How the results depend on the processing

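The 2 ABC genes called higher became 5 with DESeq2 (among them ABCA2, ABCB6, ABCB9 and ABCC3, against 6.92% of all genes). They became 1 with limma on log2(FPKM + 1) and 1 with limma on log2(FPKM + 0.1), against 3.24 and 3.18% of all genes. When 1 library was left out, the count was 0 to 5. It was 0 without any 1 control library (0.62 to 0.747% of all genes) and 1 without U87MG-LMO2 replicate 1 (1.09%). It was 4 without replicate 2 (3.54%) and 5 without replicate 3 (7.97%). ABC genes called lower went from 0 to between 0 and 2, the 2 being ABCA1 and ABCD3 without U87MG-LMO2 replicate 3 (6.72% of all genes). The efflux gene called higher became 0 to 2. The fits without any 1 control library gave 0 (0.62 to 0.747% of all genes), and the fit without U87MG-LMO2 replicate 2 added ABCC2 (3.54%). List genes called higher (2) became 4 with DESeq2 (6.92% of all genes), 1 with the replicate block (2.4%) and 1 to 6 without 1 library. They were 1 without any 1 control library (0.62 to 0.747%) and 6 without U87MG-LMO2 replicate 3, where 7.97% of all genes were higher. List genes called lower (1) became 2 with upper-quartile normalization (2.75% of all genes), 2 with DESeq2 (4.76%) and 2 with at least 10 counts in every library (2.92%). They also became 2 with limma on log2(FPKM + 1) (2.29%) and 2 with log2(FPKM + 0.1) (2.26%). The replicate block gave 0 (1.17%). Without 1 library they were 0 to 11. They were 0 without any 1 control library or U87MG-LMO2 replicate 1 (0.255 to 0.339%). They were 11 without U87MG-LMO2 replicate 3, where 6.72% of all genes were lower. The labels do not say whether the replicate numbers pair the libraries. Deviations from the group mean had correlations of -0.117, -0.00342 and -0.0407 between libraries of the same number. With 3 libraries per group these values cannot exclude a pairing. Under the block ABCC3 (2.15, edgeR adjusted p 8.80e-03) and ABCA2 (0.78, 0.0455) were still called. Over all genes the block took the calls from 1203 to 576. The cause of these moves was not tested.

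Log2 fold changes near 0 changed sign. ABCA6 became 0.0016 with upper-quartile normalization, 0.0020 with no filter, 0.00068 with at least 10 counts and 0.21 after GC removal. ABCD4 became 0.0045, 0.0031 (DESeq2), 0.0037 and 0.0053, and ABCF2 0.0027, 0.0014, 0.0033 and 0.0034, with upper-quartile normalization, DESeq2, no filter and at least 10 counts. GC removal gave 0.16 for ABCA9, -0.0044 for ABCC1, 0.094 for ABCC9 and -0.025 for ABCF3. limma gave -0.033 and -0.048 for ABCB5 and -0.012 and -0.014 for ABCC4 with pseudocounts of 1 and 0.1. Without 1 library the ranges crossed 0 for ABCA5 (-0.051 to 0.30), ABCA6 (-0.40 to 0.27), ABCA9 (-0.19 to 0.086), ABCB5 (-0.095 to 0.19), ABCC4 (-0.024 to 0.18), ABCD4 (-0.16 to 0.10), ABCF1 (-0.10 to 0.062), ABCF2 (-0.12 to 0.099) and ABCG8 (-0.35 to 0.13). None of these was called in any fit. Of 432 refitted values of single ABC genes, 371 kept their sign and their side of the threshold. Values to which DESeq2 gave no adjusted p were counted here by their sign alone. By CPM, 29 members reached 1 in U87MG-control, against 25 by FPKM.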
